A study of Mus with 5 samples.

Results

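In CD8 T cells that were not given retinoic acid (RA), 5959 weaker BATF peaks lay at promoters, and 2221 of them had no BATF peak within 5 kb once the cells had been treated with RA. These 2221 promoter sites are described here. They were selected on 3 values of the BATF lists: a −log10 p under 20 in the control list, the class promoter in the authors' annotation, and the absence of a BATF RA peak that overlapped the site after it was widened by 5 kb on each side. They made up 37.3% of the 5959 weaker promoter peaks, and came from 15810 BATF control peaks on chromosomes 1 to 19, X and Y, out of 27480 peaks in the 4 lists of the series. Of all 15810 control peaks 30.1% had no RA peak within 5 kb, and of the promoter peaks of any strength 25.7%. The share among the weaker promoter peaks follows from the selection and is given as a description only. "Missing" means here that no peak was called, not that BATF was absent from the DNA.

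The lists come from chromatin immunoprecipitation followed by sequencing (ChIP-seq) with antibodies against RARα or BATF. Primary splenic T cells of wild-type (WT) mice, labelled as naive CD8 T cells, were activated with antibodies to CD3 and CD28 plus IL-2 for 24 h, rested in IL-2 at 100 U/ml for 24 h, and exposed for the last 1 h to 50 nM RA or, as the control, to none. All groups shared this activation, although the treatment labels name a different interleukin for different samples. Every list was called by the authors on 2 pooled ChIP files against 1 and the same IgG file, whose RA status is not stated. There is thus 1 list per condition and no spread between replicates, so no test between control and RA could be made. The BATF pool held 23110180 fragments in the control and 16424269 with RA, which is 71.1% of the control, and this difference in depth cannot be told apart from RA. All 7 CD8 T cell marker genes (Cd8a, Cd8b1, Cd3d, Cd3e, Cd3g, Cd2 and Thy1) carried a BATF control peak. The same was true of all 3 B cell genes, 1 of 4 myeloid genes and 1 of 2 natural killer cell genes checked, and a peak is no measure of expression. None of these marker genes was at a missing promoter site.

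BATF is a transcription factor of the AP-1 family that has no activation domain of its own and binds DNA as a dimer with a JUN protein, often beside IRF4 or IRF8. Antigen receptor signals raise it in T cells, where it opens chromatin and is needed for effector CD8 T cells to expand. RA, a metabolite of vitamin A, is the ligand of nuclear receptors such as RARα, which sit on DNA with an RXR partner and exchange corepressors for coactivators when the ligand binds. Promoters of widely expressed genes hold open chromatin in most cells, whereas much of the binding that sets T cell identity lies at distal enhancers.

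The missing promoter sites were small peaks of modest height. At the summit, the median pileup, the number of fragments that cover the highest point on the scale of the caller, was 25.7, with quartiles of 20.7 and 30.6 and a range from 12.8 to 66.2. The IgG level recovered at the same points had a median of 5.00, and its lowest value, 2.86, is the background that the caller assumes for the whole genome. Fold enrichment over IgG was 4.35 at the median, with quartiles of 3.68 and 5.12 and a range from 1.97 to 7.93. The lower and upper ends of these ranges are set by the calling against IgG and by the limit on −log10 p that chose the sites. Their median −log10 p was 10.1 and their median length 467 bp, from 239 to 3252 bp.

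Among the 3738 weaker promoter peaks with an RA peak within 5 kb, called retained here, 2589 overlapped an RA peak themselves, and 1149 had one nearby only. The 2589 overlapped peaks had a median pileup of 29.6, a fold enrichment of 5.12, an IgG level of 5.00 and a length of 763 bp in the control list. The missing sites were thus lower and shorter than the overlapped ones at the same median IgG level, a difference that the selection on calls can itself produce. The 2177 weaker peaks outside promoters that were missing with RA were lower again in pileup (median 22.7) and shorter (387 bp), but had a slightly higher fold enrichment (4.55), since the IgG level was 4.00 there.

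**Figure D1:**
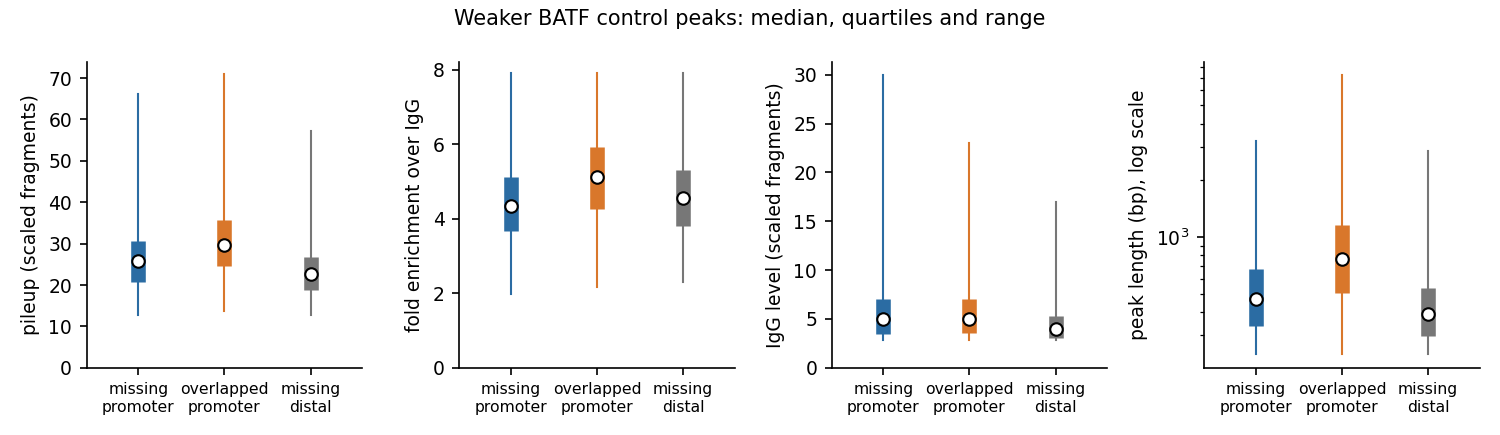
Pileup, fold enrichment, IgG level (all on linear axes) and length (log axis) in the BATF control list for the 2221 missing promoter sites, the 2589 weaker promoter peaks that overlapped an RA peak and the 2177 missing weaker distal peaks; circles are medians, thick bars quartiles and thin lines the full range. The ranges overlap widely, and the missing promoter sites have a lower median fold (4.35) than the overlapped ones (5.12).

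The share of promoter peaks that were missing was lower among peaks that were stronger in the control list. It was 50.6% at a −log10 p of 5 to 6 (167 of 330), 44.8% at 8 to 10, 32.3% at 12 to 15 and 21.1% at 15 to 20 (311 of 1474). Since 5 kb also lets a peak be retained through a neighbour, the count was repeated for lone peaks, those with no other BATF control peak within 5 kb. Among lone promoter peaks the share ran from 78.3% (Wilson 95% interval 71.3 to 84.1, counting error only, as for all intervals below) at 5 to 6 down to 27.0% (24.2 to 29.9) at 15 to 20. Lone distal peaks were missing more often in the same bins, from 87.1% (80.7 to 91.6) down to 43.3% (38.9 to 47.8). The intervals of lone promoter and lone distal peaks did not overlap in 4 of the 7 bins (7 to 8, 8 to 10, 12 to 15 and 15 to 20).

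**Figure D2:**
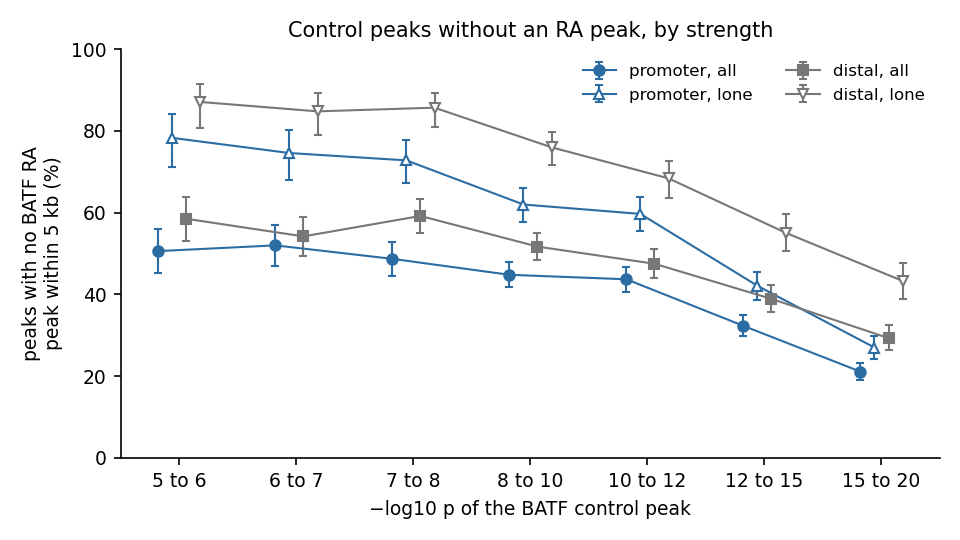
Share of weaker BATF control peaks with no BATF RA peak within 5 kb, in bins of the control −log10 p, for promoter and distal peaks, all or lone (no other control peak within 5 kb); bars are Wilson 95% intervals of counting error. The lone promoter peaks go from 78.3% to 27.0% and stay below the lone distal peaks.

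The lower depth of the RA pool touches these calls directly, so each site was recomputed at that depth. When the control pileup and IgG level were both multiplied by 0.720, the scale of the RA list, 1951 of the 2221 missing sites (87.8%, 86.4 to 89.1) still reached the cutoff of −log10 p 5 at their summit, with a median of 7.63. None of the 167 sites at a −log10 p of 5 to 6 did, 95 of the 198 at 6 to 7 did, and all stronger sites did. Among the overlapped weaker promoter peaks the share was 97.3%. In those peaks the pileup with RA was in fact 0.641 of the control pileup at the median, with quartiles of 0.555 and 0.742. With this ratio in place of 0.720 for the pileup, the share of missing sites that reached the cutoff was 70.4% (68.4 to 72.2), against 90.4% of the overlapped peaks. That ratio comes from peaks called in both lists, and a call also needs a minimum length, so these shares cover the summit only. The scaled values also carry no counting error of the RA library, and the sites were chosen for lacking an RA call. The shares therefore do not say how many of the sites would be called at the lower depth.

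Few sites lay close to the distance limit. The gap to the nearest BATF RA peak had a median of 39974 bp with quartiles of 17331 and 95936 bp, 273 sites (12.3%) had an RA peak within 10 kb and 1691 (76.1%) within 100 kb. Just inside the limit were sites at Rmdn1 (5008 bp), Rbm8a (5028 bp) and Casp8 (5029 bp), and just outside it peaks at Spag1 (4989 bp), Slc35g1 (4964 bp) and Yipf3 with Polr1c (4871 bp). At the limit of strength, the sites at Atg14, Sema7a and Atp5o had a −log10 p that rounds to 20, 19.9 and 19.9, and the peaks at Arl2bp, Snapc2 and Hint1, which were also missing with RA, one of 20, 20.2 and 20.2.

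Most missing sites stood alone. Of the 2221 sites, 1674 (75.4%, 73.5 to 77.1) had no other BATF control peak within 5 kb, against 44.8% (43.2 to 46.4) of the retained peaks and 63.0% (61.2 to 64.9) of those that overlapped an RA peak. Part of this contrast is set by the rule, because a neighbour is a further chance of an RA call. In the detailed annotation 1057 sites (47.6%) were at a start site, 384 (17.3%) in an intron, of which 340 in intron 1, 271 (12.2%) in a CpG island, 199 (8.96%) in an exon, of which 167 in exon 1, and 165 (7.43%) in a 5′ UTR. The overlapped promoter peaks had nearly the same make-up, with 48.4% at a start site, 16.4% in an intron and 13.3% in a CpG island, and all 3 intervals overlapped those of the missing sites. For 1732 sites (78.0%) the midpoint was within 1 kb of an end of the gene they were assigned to. Among all retained peaks, including those with an RA peak nearby only, it was 2465 (65.9%).

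RARα peaks were scarce near the missing promoter sites. The RARα lists took no part in the selection, although they share the IgG file. Within 5 kb of a RARα control peak were 7.16% of all 15810 BATF control peaks. Among the missing promoter sites it was 21 of 2221 (0.946%, 0.619 to 1.44), and among the retained weaker promoter peaks 196 of 3738 (5.24%, 4.57 to 6.01). The retained peaks that overlapped an RA peak were lower, at 103 of 2589 (3.98%, 3.29 to 4.80), and those with an RA peak nearby only were at 8.09%. The retained peaks came to 5.36% when weighted to the strength of the missing sites, and their share was higher in each of the 7 bins of −log10 p. For lone peaks the values were closer, at 13 of 1674 (0.777%, 0.454 to 1.32) against 33 of 1674 (1.97%, 1.41 to 2.76), and the intervals still did not overlap. Counted by overlap alone, 11 missing sites (0.495%) and 67 retained peaks (1.79%) shared DNA with a RARα control peak. For missing weaker distal peaks the share was 5.28% (115 of 2177), and for retained weaker distal peaks 14.5%. A RARα RA peak lay within 5 kb of 0.841% of all BATF control peaks, of 3 missing promoter sites (0.135%, 0.0459 to 0.396) and of 27 retained promoter peaks (0.722%, 0.497 to 1.05). These are counts of peaks in 1 list each, and whether the difference would hold between cultures was not tested.

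**Figure D3:**
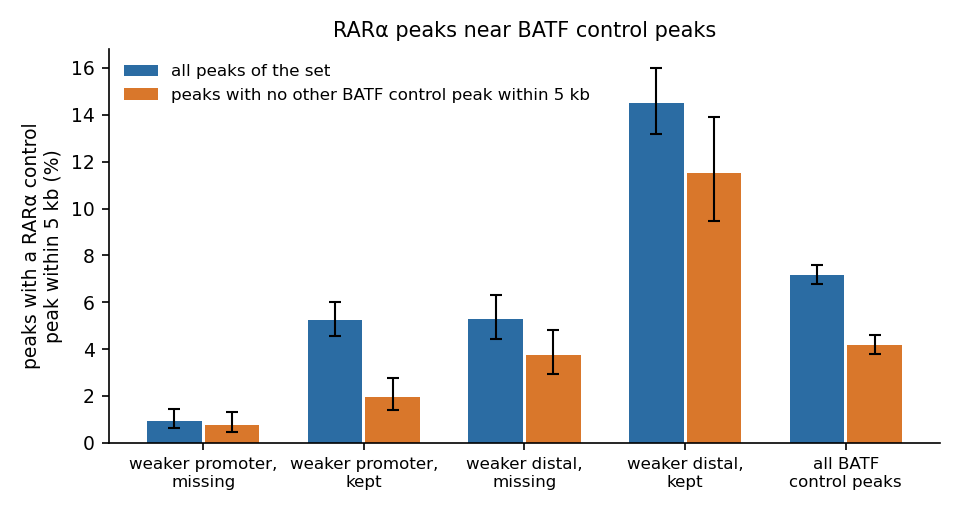
Share of BATF control peaks with a RARα control peak within 5 kb, for weaker promoter and distal peaks missing or retained with RA (labelled kept) and for all peaks, each with and without the restriction to lone peaks; bars start at 0 and error bars are Wilson 95% intervals of counting error. The missing promoter sites have the lowest shares, 0.946% of all and 0.777% of lone sites.

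The 21 sites lay near 20 RARα control peaks, 11 of which overlapped a missing site. The strongest was the RARα peak near Gimap9, a GTPase of the immunity-associated family of lymphocytes, with a pileup of 68.0 over an IgG level of 5.96 and a fold of 9.92, 3034 bp from the BATF site. The RARα peak at Cox17, a copper chaperone needed to assemble cytochrome c oxidase, overlapped its BATF site and had a pileup of 27.0 and a fold of 6.21. Others overlapped the BATF sites at Xdh, xanthine dehydrogenase (RARα fold 4.64), Bcl3, a nuclear partner of NF-κB (4.45), and Notch2, a Notch receptor (4.38). A RARα peak in an intron of Il10rb, a chain of the IL-10 receptor, lay 4815 bp from the site (4.41). All but the Gimap9 peak thus had RARα folds under 7. RARα RA peaks lay near 3 missing sites. At Ncf4, a subunit of the phagocyte NADPH oxidase, RARα was called both without RA (fold 3.62) and with it (3.24), the former 3440 bp from a BATF site of fold 5.06, and at Tubb2a, a tubulin gene, and the non-coding gene 2900060B14Rik it was called only with RA, at folds of 2.78 and 2.75.

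The missing sites named 2282 genes, since 323 of them were assigned to more than 1 gene, and assignment is no evidence that a gene is regulated from the site. Of the 2273 found in RefSeq, 2109 (92.8%) were protein coding, 94 long non-coding RNAs and 40 microRNAs. For 1383 genes (60.6%) every BATF control peak assigned to them was a missing promoter site, and 611 (26.8%, 25 to 28.6) still had a BATF RA peak elsewhere. Both shares rest on the gene assignment, and the second became 74.8% when an RA peak within 100 kb of a site was counted. The same shares are not given for other genes, so neither is read as a trait of the missing sites. Other BATF peaks of these genes outside promoters, more than 5 kb from a missing site, were retained with RA in 857 of 1353 cases (63.3%, 60.7 to 65.9). For genes whose weaker promoter peaks were all retained it was 2088 of 3120 (66.9%, 65.3 to 68.6), and for strong distal peaks alone 89.7% (86.2 to 92.3) against 91.1% (88.9 to 92.8). Among weaker distal peaks the shares were 53.2% (50 to 56.3) and 58.4% (56.4 to 60.4). The intervals of the strong distal peaks overlapped and those of the weaker ones did not.

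Of all 5848 genes with a weaker promoter peak 39.0% held a missing site, and the shares of the gene groups are read beside that value. The groups were chosen with earlier results of these data known, and none is called particular to the missing sites. In the 6 groups of T cell and retinoid genes, 46 sites at 29 genes were missing, with a median pileup of 25.7 (15.8 to 47.4) and a median fold of 4.51 (2.47 to 7.17), which is close to the 4.35 of all missing sites.

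**Figure D4:**
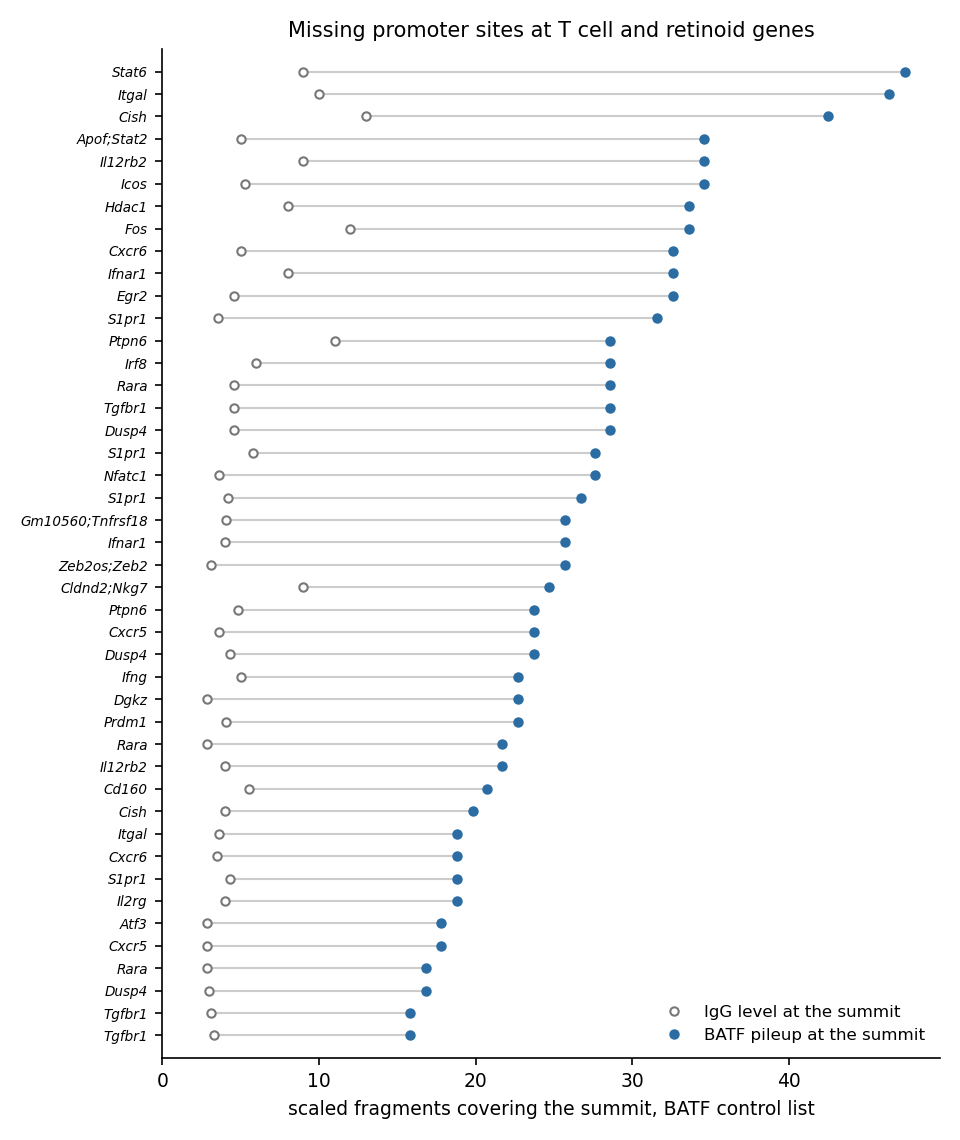
BATF pileup (filled) and IgG level (open) at the summits of 44 of the 46 missing promoter sites at T cell and retinoid genes, in scaled fragments of the control list on a linear axis; each line is 1 site and genes with several sites appear several times. Pileups run from 15.8 at Tgfbr1 to 47.4 at Stat6, and IgG levels from 2.86 to 13.0, each site being above its IgG level by the calling.

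Of the AP-1, BATF and IRF factors, 3 of the 11 genes with a weaker promoter peak held a missing site (27.3%). Fos encodes a classical partner of JUN. Its site covered the promoter at chr12:85473384-85474127 and had a pileup of 33.6 over a high IgG level of 12.0, a fold of 2.66. An intergenic Fos peak of fold 9.34 in the control was still called with RA at 4.57. Irf8 encodes an IRF protein that can bind beside BATF. Its promoter site (chr8:120735969-120736608) had a pileup of 28.6 and a fold of 4.24, and 3 intergenic peaks of the gene were called with RA, at folds of 5.88, 10.1 and 8.10. Atf3, a stress-induced AP-1 family factor, had a promoter site of pileup 17.8 and fold 4.86 on chromosome 1. The stronger of its intergenic peaks was called in both lists, at folds of 8.23 (control) and 7.52 (RA). At each of these 3 genes the promoter call was missing, as the rule requires, while at least 1 intergenic call remained. Of strong distal peaks 89.7% were retained at genes with a missing site and 91.1% at genes whose weaker promoter peaks were all retained. Other intergenic control peaks (fold 5.37 at Atf3, 3.33 at Fos, 5.96 at Irf8) were overlapped by no RA peak of these genes.

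Among the T cell transcription factors, 6 of 36 genes (16.7%, 7.87 to 31.9) held a missing site, below the 39.0% of all genes. Only 8 of their 60 weaker promoter peaks were lone (13.3%, against 56.2% of all weaker promoter peaks), and 5 of these 8 were missing, while of all 60 it was 6. Prdm1 encodes Blimp-1, a repressor that drives terminal effector differentiation. Its 262 bp site (chr10:44458782-44459043) had a pileup of 22.7 and a fold of 4.67, and of the 8 further control peaks of the gene the intergenic one of fold 10.5 was called with RA at 8.87. The intergenic one of fold 5.45 was overlapped by no RA peak of the gene. Egr2, a zinc finger factor induced by the T cell receptor, had a site of pileup 32.6 and fold 6.04, and its strongest intergenic peak had a fold of 8.27 without RA and 6.46 with it. Another intergenic Egr2 control peak, of fold 6.48, was overlapped by no RA peak of the gene. Stat6, which carries IL-4 signals, had the highest pileup of the 46 sites at T cell and retinoid genes, 47.4 over an IgG level of 9.00 in a peak of 2090 bp (chr10:127641911-127644000), and no other BATF peak in either list. The same held for Stat2, a transducer of type I interferon signals (pileup 34.6, fold 5.93, in a peak also assigned to Apof). At these 2 genes, which are among the 1383 named above, the promoter site was the sole BATF call. Zeb2, a repressor active in terminal effector cells, had a site of fold 6.48 and Nfatc1, a calcium-dependent activator, one of 6.23, and the latter lay 5804 bp from an RA peak in the same promoter region.

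Receptors for cytokines, chemokines and homing signals were the T cell group with most missing sites. Of 22 genes 9 were hit (40.9%, 23.3 to 61.3), close to the 39.0% of all genes, and 20 of their 37 weaker promoter peaks were missing (54.1%, against 37.3% of all weaker promoter peaks). Only 3 of the 37 were lone, and 8 of the 9 genes had a BATF RA call elsewhere.

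S1pr1, the sphingosine-1-phosphate receptor that lets T cells leave lymphoid organs, had 4 missing sites, a number that only Dnajb4 and Tapt1 shared. They ran from 115711640 to 115716509 on chromosome 3, from exon 2 through the intron and the 5′ UTR to intergenic DNA upstream of the start at 115715055, with pileups of 27.6, 26.7, 18.8 and 31.6 over IgG levels of 5.76, 4.17, 4.32 and 3.55, and folds of 4.24, 5.35, 3.72 and 7.17. An intergenic peak of the gene at chr3:115758323-115759207 was the strongest there and was called in both lists, with a pileup of 130 and a fold of 23.6 without RA and of 115 and 27.8 with it. The lack of an RA call near the promoter is set by the rule that chose the sites. The RA list held 3 intergenic peaks of the gene. Intergenic control peaks of fold 5.51, 3.06 and 4.88 had no counterpart among them, so calls were missing outside the promoter too. Recomputed at the RA scale, the 4 sites had a −log10 p of 7.75, 10.1, 5.30 and 14.1, all above the cutoff of 5. These values use the scale of 0.720 and do not say whether the sites would be called at the lower depth. At the lower pileup ratio of the overlapped peaks (0.641), fewer of all missing sites reached the cutoff (70.4%, against 87.8%). Values of single sites at that ratio are not given.

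Tgfbr1, a TGF-β receptor chain, had 3 missing sites around its start with folds of 3.92, 5.33 and 4.08, and no RA peak assigned to it. Il12rb2, the signalling chain of the IL-12 receptor, had 2 sites with pileups of 34.6 and 21.7, while its intronic control peak had a fold of 6.42 without RA and 5.75 with it. A further intronic peak of this gene, of fold 8.86, was called only with RA. The chemokine receptors Cxcr5 (follicle homing) and Cxcr6 (retention in tissue) had 2 sites each, with folds of 4.86 and 5.37 and of 5.60 and 4.41. Their strongest intergenic control peaks were called in both lists, at folds of 20.6 without RA and 16.4 with it for Cxcr5, and of 8.73 and 10.7 for Cxcr6. Cxcr6 also had an intergenic peak of fold 16.2 that was called only with RA. Intergenic Cxcr5 control peaks of fold 3.46, 3.94 and 3.95 were overlapped by no RA peak of that gene. Ifnar1 (type I interferon receptor) and Itgal (the integrin LFA-1) had 2 sites each, and the higher Itgal site reached a pileup of 46.4 over an IgG level of 10. Il2rg, the common γ chain of receptors for IL-2 and related cytokines, had 1 site on chromosome X with a pileup of 18.8 and a fold of 3.95.

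Of the effector molecules, 2 of 7 genes held a missing site. The site at Ifng, the gene of interferon-γ, lay over the start site of the gene (chr10:118440618-118441315, gene 118441046 to 118445894), with a pileup of 22.7, an IgG level of 5.00 and a fold of 3.95, or 6.57 as a −log10 p at the RA scale. Of 5 intergenic Ifng peaks in the control, 3 were overlapped by RA peaks. The strongest, at chr10:118480855-118481300, had a fold of 13.4 in the control and 13.7 with RA, with pileups of 66.2 and 47.0. Nkg7, a protein of cytotoxic granules, had a site of fold 2.57 at the weak end of the range (−log10 p 5.06), which came to 3.84 at the RA scale.

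In the T cell receptor, costimulation and signalling group 7 of 28 genes (25%, 12.7 to 43.4) held 11 missing sites. Dusp4, a phosphatase that shuts off MAP kinases, had 3 sites between 34805790 and 34808602 on chromosome 8 with folds of 4.48, 5.33 and 4.65, while its intergenic peak was called in both lists, at folds of 5.60 and 4.88. Icos, a costimulatory receptor, had a site of pileup 34.6 and fold 5.67, and its strongest intergenic peak had a fold of 9.55 without RA and 5.87 with it. Another intergenic Icos control peak, of fold 8.19, was overlapped by no RA peak of the gene. Cish, an inhibitor of cytokine receptor signals, had 2 sites with pileups of 42.5 and 19.8 over IgG levels of 13.0 and 4.00. Ptpn6 (the phosphatase SHP-1) also had 2, with folds of 4.26 and 2.47, and Dgkz (a diacylglycerol kinase), Cd160 (an inhibitory receptor) and Tnfrsf18 (the receptor GITR) had 1 each, with folds of 6.14, 3.34 and 5.25.

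In the retinoid group 2 of 16 genes (12.5%, 3.50 to 36, below the 39.0% of all genes) held a missing site, namely Rara and the histone deacetylase gene Hdac1 (pileup 33.6, fold 3.84). Rara encodes the receptor RARα itself. Its 3 sites lay inside the gene, at chr11:98959553-98959947, chr11:98960365-98960671 and chr11:98961133-98961434, with pileups of 28.6, 21.7 and 16.8 and folds of 5.33, 5.86 and 4.61, between 13658 and 15192 bp from the nearer end of the gene. Other Rara promoter peaks were called in both lists, and the strongest of these had a pileup of 82.0 and a fold of 11.9 without RA, and of 45.0 and 8.91 with it.

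The widely expressed gene groups were formed from the start of the gene symbol alone. Not each gene in a group therefore has the role that the group is named for. Examples are Cox17 in the respiratory chain group, Eif2ak4 among the translation factors and Cdc42ep2 among the cell cycle genes. The groups differed among themselves. Respiratory chain genes were hit most often, with 33 of 62 genes (53.2%, 41.0 to 65.1). Next were RNA polymerase and Mediator subunits (15 of 31, 48.4%, 32.0 to 65.2) and mitochondrial ribosomal proteins (19 of 40, 47.5%, 32.9 to 62.5), whose intervals included the 39.0% of all genes. Zinc finger genes followed (66 of 140, 47.1%, 39.1 to 55.4). Cytosolic ribosomal proteins were at 10 of 45 (22.2%, 12.5 to 36.3), below the 39.0% of all genes. Proteasome subunits (40.7%), translation factors (37.9%), ubiquitin enzymes (34.3%), cell cycle genes (32.7%) and splicing factors (26.7%) also had intervals that included it. The groups also differed in how many of their peaks were lone. Of the weaker promoter peaks at respiratory chain genes 83.1% were lone, and of those at mitochondrial ribosomal genes 90.5%, against 36.4% at cytosolic ribosomal genes and 56.2% in all. Among lone peaks alone the missing shares were 59.3%, 50.0% and 35.0%, against 50.0% in all.

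**Figure D5:**
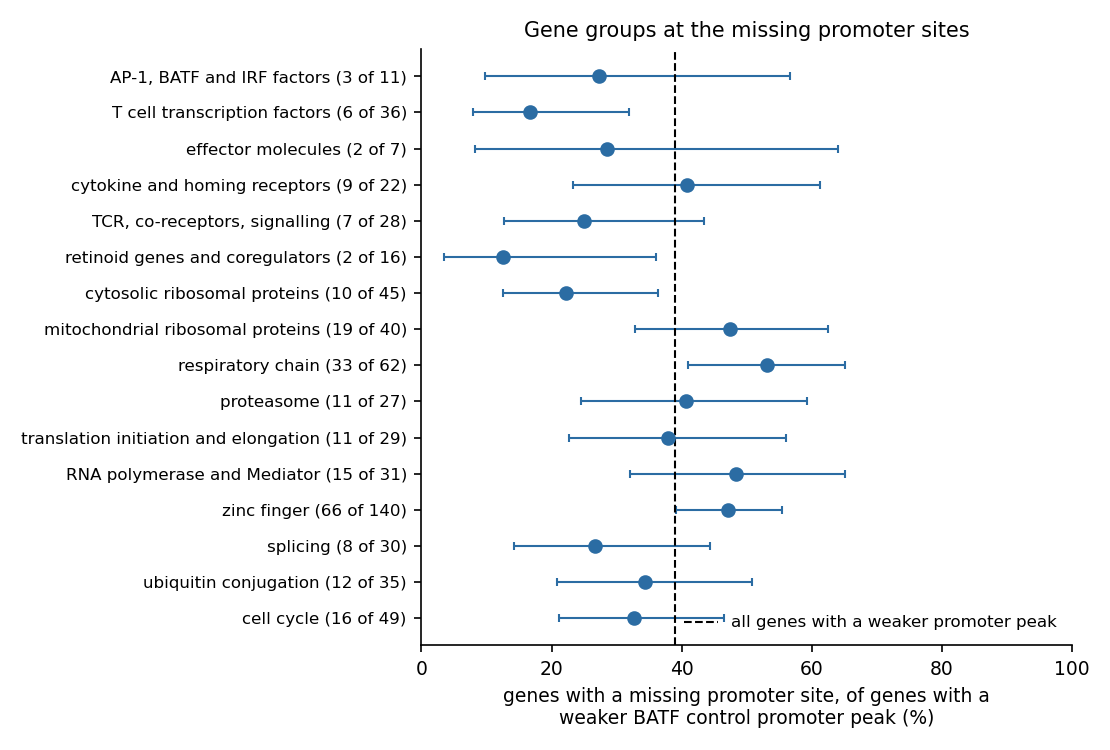
Genes with a missing promoter site as a share of the genes with a weaker BATF control promoter peak, by gene group on a linear axis, with both counts in brackets; bars are Wilson 95% intervals of counting error and the dashed line is the share of all such genes, 39.0%. The respiratory chain (53.2%) and zinc finger genes (47.1%) lie to the right of the line, and the T cell transcription factors (16.7%), retinoid genes (12.5%) and cytosolic ribosomal proteins (22.2%) to the left with intervals that do not reach it either.

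Atp5o, a subunit of the mitochondrial ATP synthase, shared the highest fold of all 2221 sites with Sema7a, a semaphorin that binds integrins, at 7.93 and a pileup of 29.6 over the background IgG level of 2.86 (chr16:91931047-91931793 and chr9:57940301-57941600). Atp5o lay 126222 bp from the nearest BATF RA peak and Sema7a 14929 bp. Next, with a fold of 7.68, were Men1, the scaffold protein menin, and Ythdf1, a reader of methylated adenosine in RNA (pileup 30.6 each), and Igsf9 and a site shared by Ccdc173 and Phospho2 (28.6 each). At the RA scale the sites at Atp5o, Sema7a, Men1 and Ythdf1 stood at a −log10 p of 15.0, 15.0, 15.3 and 15.3, against the cutoff of 5. These values, too, do not say whether the sites would be called at the lower depth. The next examples are the highest folds of their groups and were picked after the values were seen. Among the respiratory chain genes, Ndufb11 and Ndufc1, subunits of complex I, had sites of fold 6.91 and 6.35. Mrpl16 and Mrpl37 of the mitochondrial ribosome had 6.81 and 6.31, the proteasome ATPase Psmc1 6.32 and the Mediator subunit Med21 5.95. The lowest −log10 p values were at Xylt2 and Pcnx (5.00 each, with a pileup of 12.8) and Sept7 (5.05).

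Genes with several missing sites often had them side by side. There were 225 genes with 2 sites, 24 with 3 and 3 with 4, namely S1pr1, Dnajb4 and Tapt1. For Dnajb4, an HSP40 cochaperone, all 4 of its BATF control peaks were missing sites, with a summed pileup of 90.8. The same was true of Ipcef1 with its 3 sites (folds 3.39, 6.23 and 3.79), the nearest BATF RA peak being 489319 bp away. Dbp, a clock-controlled transcription factor, had 3 sites with folds of 3.80, 4.67 and 5.51, and Arid3a, an AT-rich DNA binding factor, 3 with folds of 3.95, 4.03 and 6.65. The sites shared by Mre11a and Ankrd49 had pileups of 40.5 and 52.3, yet folds of 3.32 and 2.32 only, because the IgG levels there were 11.5 and 22.0. Such neighbours share 1 stretch of chromatin and are not separate observations. Control peaks within 5 kb of each other were also counted as 1 site. Of the 4118 such sites with a promoter peak and none at a −log10 p of 20 or more, 1905 (46.3%) were missing. Sites that held a stronger peak are left out, so this share and the 37.3% of single peaks differ in more than the merging.

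A larger share of the weaker promoter peaks was missing on chromosome X than on the autosomes, but for lone peaks the intervals overlapped. On X 87 of 159 weaker promoter peaks were missing (54.7%, 47.0 to 62.3), against 2134 of 5800 on the autosomes (36.8%, 35.6 to 38.0). Single autosomes ran from 28.1% on chromosome 12 to 42.9% on chromosome 6. The median pileup of the weaker promoter peaks was 20.7 on X and 26.7 on the autosomes, and the median IgG level 2.86, the background value, against 5.00. Weighted to the strength of the X peaks, the autosomal share was 38.7%. More of the weaker promoter peaks were lone on X (65.4%) than on the autosomes (55.9%). For lone peaks the missing shares were 57.7% on X (48.1 to 66.7) and 49.8% on the autosomes (48.0 to 51.5), and these intervals overlapped. Weighted to the strength of the lone X peaks, the lone autosomal share was 52.5%, inside the interval of X. Outside promoters, 56.8% of 37 weaker peaks on X and 45.9% of 4697 on the autosomes were missing. At peaks that overlapped between the lists, the pileup with RA was 0.649 of the control on X (96 peaks) and 0.608 on the autosomes (8507 peaks). The part of the lower coverage of X in its share was not tested beyond these values.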

How the data were processed

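ChIP-seq peak lists for RARα and BATF, each without and with RA, were used as deposited. The authors aligned reads to mm10 with Bowtie2, removed duplicates, pooled 2 ChIP files per list and used MACS 2.2.7.1 for peak calling against 1 IgG file (p-value cutoff 1e-05 for BATF, 0.001 for RARα). Pileup was deposited as a signal, the fragments over the summit, scaled by 0.9875 in the BATF control list. The authors' fold enrichment is the ratio of pileup plus 1 to IgG level plus 1, from which the IgG level was recovered. The deposited p-value and q-value are on the −log10 scale, and q was not used. The −log10 p was recomputed from pileup and IgG level within 0.02 for 99.8% of BATF control peaks.

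Overlaps, shares with Wilson 95% intervals and weighted shares were computed with Python 3.11.15, numpy 2.4.6, pandas 2.3.3 and scipy 1.17.1, and plots drawn with matplotlib 3.10.9. The overlap step was tested on simulated data, where 2000 of 2000 planted peaks were called rightly. Peaks on scaffolds (2 in the BATF control list) were left out. Gene positions are from RefSeq for GRCm38.p6, to which mm10 corresponds. The members and gene lists were chosen with earlier results of these data known. Named genes are those of the fixed T cell and retinoid lists, the sites of highest fold, extreme p or width, those next to each threshold, those with the strongest RARα peaks and genes with several sites. Some sites of these lists are not reported here. Examples from widely expressed groups were picked after their values were seen. Motifs and peak sequences were not analysed here. Alternatives changed the overlap distance, the p limits, the promoter rule, the RARα cutoff, the IgG level and the scale of the RA list.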

Additional observations from a re-analysis of the deposited data

How the results depend on the processing

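Of 31 alternatives, 13 left a value within its interval (within 1.5 times for the number of sites) and 18 moved it. The number of missing sites was 3370 when peaks had to overlap and 1134 at a −log10 p of at least 10. The share of weaker promoter peaks that were missing was 56.6% by overlap, 45.5% at 1 kb, 32.7% at 10 kb, 30.8% at a −log10 p of at least 10, 46.3% with neighbouring peaks taken as 1 site and 50.0% for lone peaks. The 46.3% covers only sites that held no peak at a −log10 p of 20 or more. The share near a RARα control peak was 0.495% by overlap, 2.21% at 10 kb and 0.585% with a RARα p of 1e-05. For RARα with RA it was 0.630% at 10 kb and 0.0450% with a p of 1e-05. The retained promoter peaks had the higher RARα control share in each of these 3 settings, at 1.79%, 6.71% and 2.49%. The median fold was 5.10 without the added constant and also 5.10 at a −log10 p of at least 10. The share of genes with a BATF RA peak elsewhere became 74.8% for an RA peak within 100 kb of a site, and the share reaching the cutoff at the RA scale 97.2% with the background IgG level and 70.4% with the observed pileup ratio. Most of these follow from what the alternative counts, and other causes were not tested. Lone peaks, leaving out chromosome X, the distance to a gene end and the observed pileup ratio were added after seeing the data. The promoter rule by distance to a start site was not run, since strand was not used, and the distance to either gene end replaced it. The motif alternatives were not run without a genome sequence. No paired analysis was possible because each condition has a single list of peaks. At the scale of 0.720, the sites whose scaled value did not reach the cutoff were all under a −log10 p of 7 (0 of 167 reached it at 5 to 6 and 95 of 198 at 6 to 7). With the observed pileup ratio fewer sites reached it, 1563 of 2221. Both scalings leave out the counting error of the RA library.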
